A study of Mus musculus with 3 samples.

Results

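Imprinted loci, each named for the long noncoding RNA (lncRNA) it expresses, were described in the chromatin of adult mouse neural stem cells. The 5 lncRNAs were H19, Kcnq1ot1, Meg3, Airn and Nespas. Their loci were taken as 5 fixed windows on mouse genome build mm9, and a listed region belonged to a window when it shared at least 1 bp with it. The windows were set by place and not by any measured value, though earlier results of these data were known when they were chosen. They held 11 of the 21998 regions listed for H3K4me3 and 81 of the 117512 listed for H3K27me3. H3K4me3 is the trimethylation of histone H3 at lysine 4, found at active and poised promoters. H3K27me3 is the trimethylation at lysine 27, laid down by Polycomb repressive complex 2.

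The cells came from the subventricular zone of wild-type (WT) male C57BL/6 mice, the zone along the brain ventricles that keeps neural stem cells in the adult, and were grown as neurospheres, which are floating cultures. Each mark was measured by chromatin immunoprecipitation and sequencing in 1 library, and the input library was not analysed here. No value has a replicate error, and no age or number of animals is given in the labels. Neurospheres are a mixture of stem cells and their dividing progeny. Marker genes of these cells were not checked, because no gene table on mm9 was used here.

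Genomic imprinting is the expression of a gene from only one parental copy. A control region near the gene carries DNA methylation on one copy and not on the other. H19 and Meg3 are expressed from the maternal copy, and Kcnq1ot1, Airn and Nespas from the paternal copy. Kcnq1ot1 and Airn are long antisense transcripts known for silencing neighbouring genes on their own chromosome, in part through Polycomb in the placenta. An active mark on one copy and a repressive mark on the other give overlapping regions in a mixed library, just as both marks on one copy do. The marks in different cells of the culture give them too, which 1 library per mark cannot tell apart. C57BL/6 is an inbred strain and the lists hold positions only, so the parental copies cannot be told apart.

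The windows on mm9 were chr7:149740000-149790000 for H19, chr7:150390000-150500000 for Kcnq1ot1, chr12:110750000-110850000 for Meg3, chr17:12930000-13050000 for Airn and chr2:174090000-174180000 for Nespas. They run from 50 to 120 kb in length. The gene table at hand is RefSeq's for build GRCm38.p6, so it gave names, lengths and gene order only, and no region below was placed in an exon, an intron or a promoter. In that table all 5 names were found, Nespas under the symbol Gnasas1. H19 is 2.617 kb long and holds the microRNA gene Mir675. Kcnq1ot1 is 83.4 kb long and lies over part of Kcnq1, a potassium channel gene, with the cell cycle inhibitor gene Cdkn1c among its next neighbours. Meg3 is 30.7 kb long, has the gene of the Notch-like ligand Dlk1 as a neighbour and overlaps Rtl1, a retrotransposon-derived gene. Airn is 118.6 kb long and overlaps Igf2r, which encodes the receptor that clears insulin-like growth factor 2. Gnasas1 is 14.2 kb long and overlaps Gnas, which encodes the stimulatory G protein alpha subunit.

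Promoter sequences of 3 of the 5 lncRNAs were in the RefSeq table of GRCm38.p6. They are shown because H3K4me3 usually lies at CpG-rich promoters that lack DNA methylation, and imprinted DNA methylation sits on CG pairs. Each runs from 250 bases before to 50 bases after a transcript start, 5′ to 3′ on the strand of the gene, with every CG pair in capitals. Kcnq1ot1 is read from the minus strand, Meg3 and Airn from the plus strand. They were not placed on the mm9 regions.
Kcnq1ot1: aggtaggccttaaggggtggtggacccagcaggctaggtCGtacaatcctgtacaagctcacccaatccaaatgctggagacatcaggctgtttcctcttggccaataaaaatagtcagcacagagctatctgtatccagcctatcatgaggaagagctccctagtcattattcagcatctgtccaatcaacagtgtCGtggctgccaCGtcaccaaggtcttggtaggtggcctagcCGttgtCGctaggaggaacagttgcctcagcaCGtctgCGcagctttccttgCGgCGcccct
Meg3: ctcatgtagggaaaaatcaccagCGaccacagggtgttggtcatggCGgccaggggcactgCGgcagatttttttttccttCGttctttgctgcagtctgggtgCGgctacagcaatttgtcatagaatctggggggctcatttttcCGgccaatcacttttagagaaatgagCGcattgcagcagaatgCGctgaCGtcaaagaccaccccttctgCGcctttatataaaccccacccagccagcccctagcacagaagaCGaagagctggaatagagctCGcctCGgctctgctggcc
Airn: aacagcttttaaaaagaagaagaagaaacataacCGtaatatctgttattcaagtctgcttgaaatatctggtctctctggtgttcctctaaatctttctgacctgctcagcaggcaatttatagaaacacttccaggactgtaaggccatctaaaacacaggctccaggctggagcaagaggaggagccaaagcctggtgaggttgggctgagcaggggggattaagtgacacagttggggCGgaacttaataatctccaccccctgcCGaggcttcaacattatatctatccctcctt
The Kcnq1ot1 promoter held 9 CG pairs, and 45.8% of the 32851 promoters in the table held at least as many. Meg3 held 13 (37.9% held at least as many), and a further Meg3 start held 1 (94.6% held at least as many). Airn held 3 (76.7% held at least as many). The median over all promoters was 7. A search for CG reads the same on either strand. By this count none of the 3 starts shown was among the CG-richest in the table. CG pairs more than 50 bases after a start were not counted.

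All 5 windows held both marks, and base pairs under both were listed in 3 of them. H3K27me3 lay on 8 of the 11 H3K4me3 regions (72.7%), while over the whole list it lay on 33.5% of H3K4me3 regions. The shared regions were 2 of 3 in the Meg3 window, 2 of 2 in the Airn window and 4 of 4 in the Nespas window. The single H3K4me3 regions of the H19 and Kcnq1ot1 windows had none. Neighbouring regions share a locus and are not replicates, so this share has no test. H3K27me3 covered 23.7% of the base pairs in the windows, beside a mean of 5.68% over all windows of 50 kb. The share was not set against H3K4me3 regions in places as rich in H3K27me3. In the whole list H3K27me3 is rarer on H3K4me3 regions at the top score, which is 3100 and above on the deposited scale. Of the 5 members at the top score 4 carried H3K27me3, beside 23.6% in the list. Of the 6 members below it 4 did, beside 44.5%. The share of members at the top score was 45.5%, and that of the list was 52.6%.

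**Figure D1:**
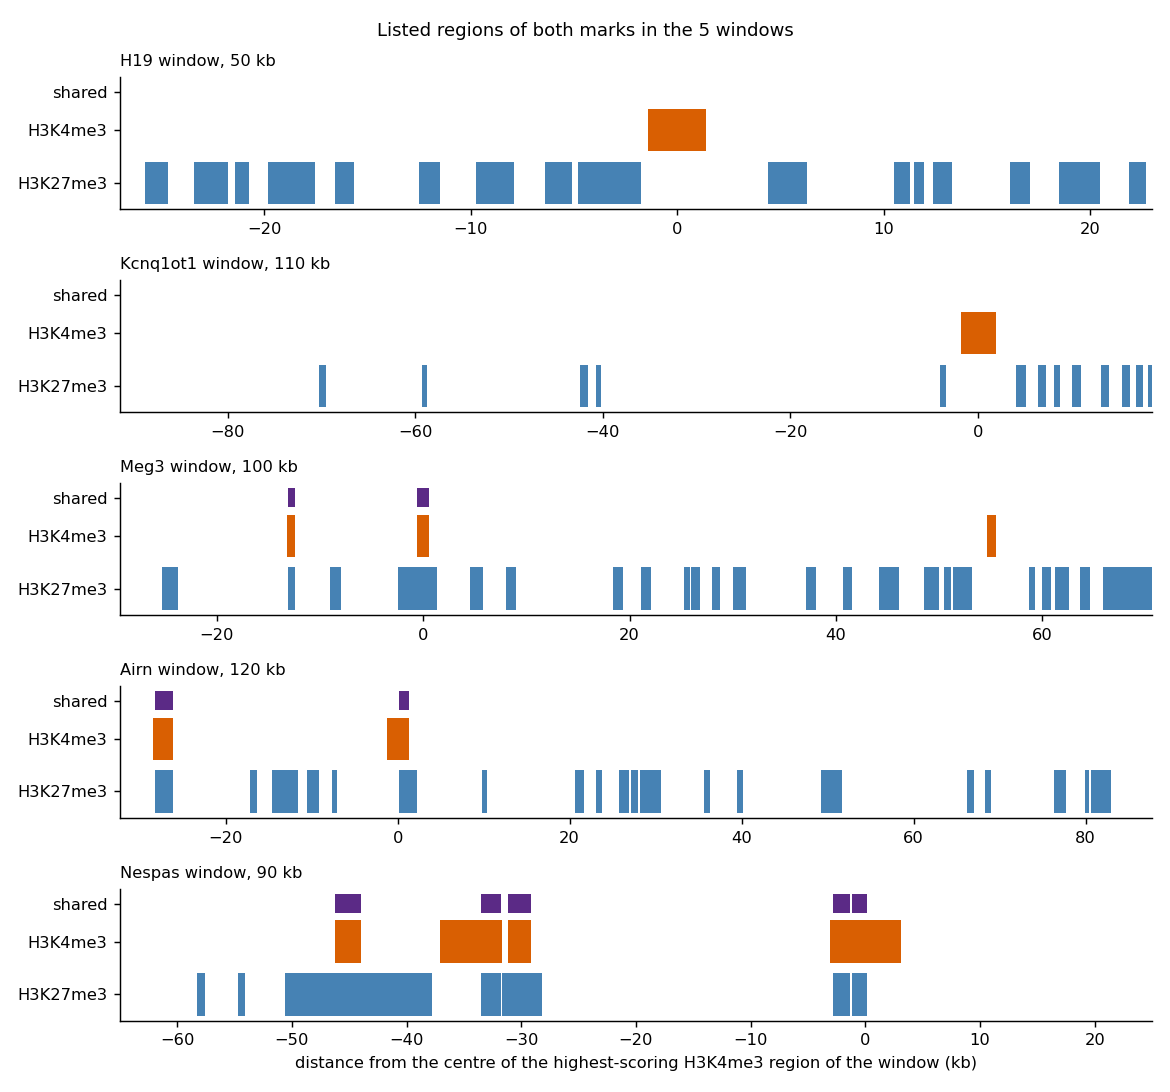
Maps of the 5 windows. The x axis is the distance in kb from the centre of the highest-scoring H3K4me3 region of each window (the wider one where scores tie), orange blocks are H3K4me3 regions, blue blocks H3K27me3 regions and purple blocks the base pairs shared by both; blocks that cross a window end stop there. Shared blocks are present in the Meg3, Airn and Nespas windows, and in the H19 and Kcnq1ot1 windows the H3K4me3 region lies between H3K27me3 regions.

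In the H19 window, H3K27me3 lay on both sides of the H3K4me3 region without touching it. H19 is a short, abundant fetal transcript that shares enhancers with the growth factor gene Igf2, and the control region of the pair is known to lie just upstream of H19. The H3K4me3 region ran over chr7:149765572-149768370, was 2799 bp wide and had a score of 1766.45, and 42.2% of its list scored as high or lower. The H3K27me3 region below it, at chr7:149762182-149765243, ended 328 bp away. That region was 3062 bp wide with a score of 1040.35, the highest of its mark in the window. The next H3K27me3 region above began 3028 bp away. The H3K4me3 region thus filled 45.5% of a stretch of 6155 bp that held no H3K27me3.

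H3K27me3 was dense through the rest of the H19 window. Its 16 regions covered 43.5% of the window, and 96.7% of all windows of 50 kb along the chromosomes had less. The mean cover of those windows was 5.68%. Of the 16 H3K27me3 regions 6 scored below 100, and the median score was 121.64, beside 112.08 in the list. Below the H3K4me3 region H3K27me3 covered 54.1% of the window and above it 36.6%. The regions above ran on past the window end in a domain of 43.8 kb, when regions were joined over gaps of up to 3 kb. Cover by H3K27me3 was 20.4% in the 50 kb below the window and 42.5% in the 50 kb above it.

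In the Kcnq1ot1 window, the H3K4me3 region was at the top score, as was 52.6% of its list, and free of H3K27me3. It stood at the edge of a long stretch with less H3K27me3 than the surroundings of the window. Kcnq1ot1 starts inside an intron of Kcnq1 and is read against it. The H3K4me3 region lay at chr7:150479549-150483286 and was 3738 bp wide, and 90.3% of its list was as narrow or narrower. The nearest H3K27me3 regions ended 1588 bp below it and began 2165 bp above it. These neighbours had scores of 82.13 and 121.18 and were 582 and 1079 bp wide. Both were lower in score and narrower than either neighbour at H19. Those had scores of 1040.35 below and 156.68 above, at widths of 3062 and 1857 bp.

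The sides of the Kcnq1ot1 H3K4me3 region differed. In the 89.5 kb of the window below it there were 5 H3K27me3 regions, which covered 3.85%. In the 16.7 kb above it there were 8, which covered 38.3%. Scores on that upper side ran from 65.32 to 181.42, beside a list median of 112.08. In the window as a whole, 10 of the 13 H3K27me3 regions scored below 100. One region of the lower side stood out, at chr7:150411133-150411960, with a score of 671.42 at a width of 828 bp. The regions above began a domain of 50.4 kb, chr7:150485452-150535868, that left the window. On the lower side the next domain of at least 10 kb ended at 150385072, outside the window, and was 26.3 kb long. Between these domains lay 100.4 kb with 3.43% H3K27me3, a stretch whose bounds leave out the long domains by construction. Over all windows of 110 kb the median cover was 1.23% and the mean 5.68%. This stretch was above that median and below that mean. It was low beside the 50 kb on either side of the window, which had 52.5% and 51.8%. The window as a whole had 8.95%, the lowest of the 5, and 83.8% of windows of 110 kb had less.

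**Figure D2:**
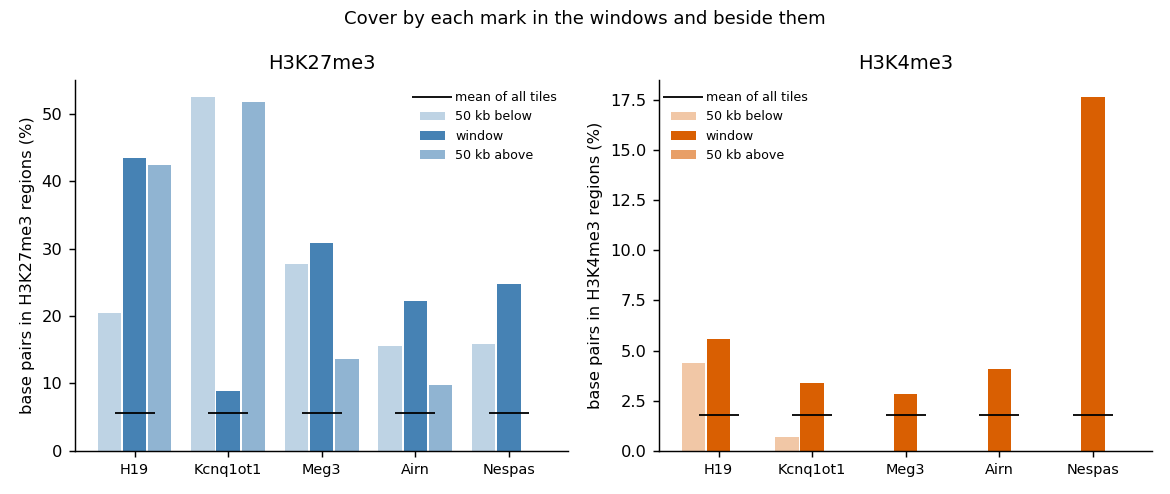
Percent of base pairs in H3K27me3 regions (left) and H3K4me3 regions (right) in each window and in the 50 kb below and above it; black lines are the mean over all windows of the same length. The Kcnq1ot1 window, at 8.95%, is lower in H3K27me3 than the 50 kb on each of its sides, while the other 4 windows are higher than both of their sides, and no H3K4me3 region lies in the 50 kb above any window, as in 71.2% of all windows of 50 kb.

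In the Meg3 window, all 3 H3K4me3 regions were low in score and narrow, while a few H3K27me3 regions reached high scores. The median score of its 24 H3K27me3 regions was 110.34, beside 112.08 in the list. Meg3 is a lncRNA of the nervous system and pituitary, and its cluster also holds many microRNAs. The H3K4me3 scores were 69.23, 105.74 and 94.57 from low to high position. At most 11.9% of the list scored as low as any of them. Their widths were 783, 1167 and 876 bp, beside a list median of 1988 bp. None of the other 4 windows had an H3K4me3 region with a score under 242.32.

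The middle H3K4me3 region of the Meg3 window, chr12:110778748-110779914, was wholly covered by an H3K27me3 region of 3736 bp, chr12:110776931-110780666. That H3K27me3 region had a score of 2123.32, and 96.4% of its list scored as high or lower. It reached 1817 bp past the lower end of the H3K4me3 region and 752 bp past the upper end. The lowest H3K4me3 region, chr12:110766166-110766948, held an H3K27me3 region of 650 bp that covered 83.0% of it. This H3K27me3 region had a score of 104.26, near its list median of 112. The third, chr12:110833992-110834867, had no shared base pair. It lay 1499 bp above one H3K27me3 region and 3146 bp below the next.

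The Meg3 window held 24 H3K27me3 regions that covered 30.8% of it. Of all windows of 100 kb, 94.9% had less. The cover was uneven along the window. It was 9.38% in the 16.2 kb below the lowest H3K4me3 region and 57.7% in the 15.1 kb above the highest. The highest score was at the upper end, where a region of 7161 bp at the top score, chr12:110845245-110852405, crossed the window end. No H3K4me3 region touched it. Of the base pairs in H3K4me3, 64.3% were shared, and of those in H3K27me3, 5.90%.

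The Airn window held 2 H3K4me3 regions at the top score, and H3K27me3 lay on both in different ways. Airn starts inside Igf2r, is read against it, and is known to silence Igf2r on the paternal copy by being transcribed across its promoter. The lower H3K4me3 region, chr17:12933835-12936146, was 2312 bp wide. An H3K27me3 region of 2089 bp with a score of 542.89 lay inside it and covered 90.4%. Its ends were 194 bp and 29 bp inside those of the H3K4me3 region, so the marks had nearly the same extent. This pair stood alone, with the nearest other H3K27me3 regions 6351 bp below and 8916 bp above.

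The upper H3K4me3 region of the Airn window, chr17:12960953-12963508, was 2556 bp wide and 24.8 kb above the lower one. H3K27me3 reached in over its upper end, from 12962353, and went on 948 bp past it to 12964456. It covered 45.2% of the H3K4me3 region, and 54.9% of the H3K27me3 region was shared. The score of that H3K27me3 region was 200.51. The lower part of this H3K4me3 region was free of H3K27me3. The remaining 19 H3K27me3 regions of the window had no H3K4me3, and the strongest of them, with scores of 663.71 and 651.55, were at chr17:12990367-12992843 and chr17:12947653-12950645. H3K27me3 covered 22.2% of the window, and 92.3% of windows of 120 kb had less.

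The Nespas window had the most H3K4me3 and the most shared base pairs of the 5. Its 4 H3K4me3 regions covered 17.6% of it, and 99.5% of windows of 90 kb had less. The marks shared 8839 bp there, beside 3245 bp in the Airn window and 1817 bp in the Meg3 window, and 99.9% of windows of 90 kb shared less. The locus is known for several promoters with different parental expression, those of Nesp, Nespas, the large Gnas form XLas, exon 1A and Gnas itself. Which of the H3K4me3 regions belongs to which promoter was not analysed here.

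Along the Nespas window, regions wholly under H3K27me3 alternated with regions under it in part. The first H3K4me3 region, chr2:174108734-174111025, was 2292 bp wide with a score of 420.36. It lay inside an H3K27me3 region of 12832 bp at the top score, chr2:174104336-174117167, and 99.8% of that list was as narrow or narrower. The second, chr2:174117893-174123236, was at the top score and 5344 bp wide. It began 725 bp after that H3K27me3 region ended, and its lower part was free of the mark. An H3K27me3 region of 1747 bp with a score of 285.24 covered 32.7% of it, ending 24 bp before its upper end.

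The third H3K4me3 region, chr2:174123838-174125825, followed after 601 bp, was 1988 bp wide and had a score of 242.32. It lay inside an H3K27me3 region of 3569 bp at the top score, chr2:174123241-174126809. Only 28 bp separated this H3K27me3 region from the one in the second H3K4me3 region. Across these short gaps the H3K4me3 score went from the top score to 242.32 and the H3K27me3 score from 285.24 to the top score. The fourth H3K4me3 region, chr2:174151838-174158078, was at the top score and 6241 bp wide, and 99.0% of its list was as narrow or narrower. H3K27me3 regions of 1509 and 1303 bp lay in its lower part and covered 45.1%. Its uppermost 3003 bp had none, and no H3K27me3 region followed in the rest of the window or in the 50 kb above it.

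**Figure D3:**
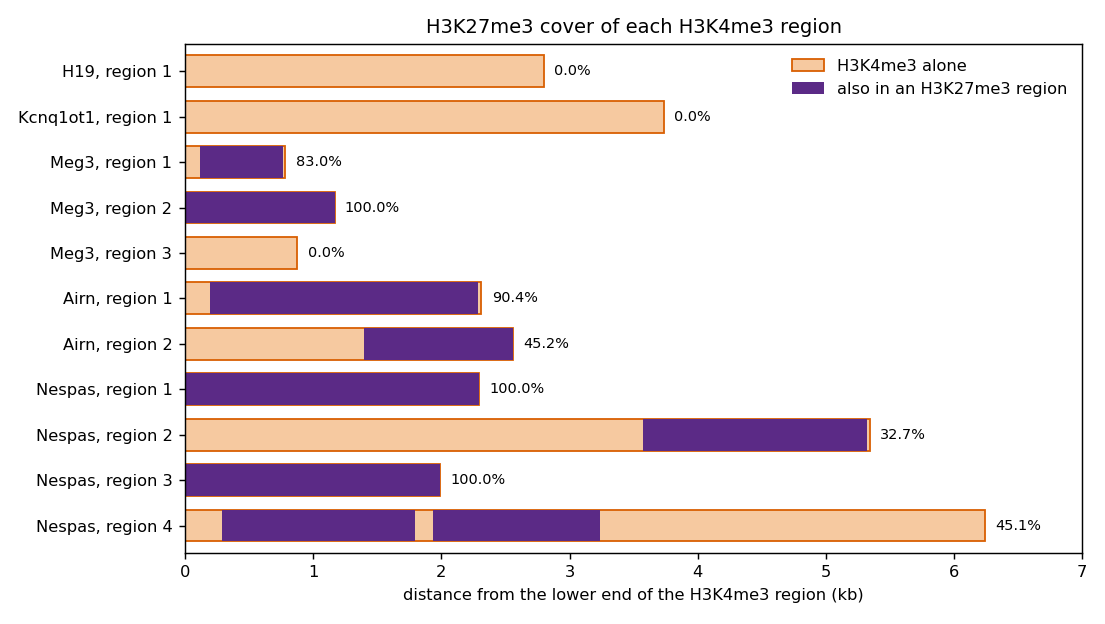
The 11 H3K4me3 regions drawn to scale from their lower end (x axis, kb), numbered by position within each window, with the part inside an H3K27me3 region in purple and the percent covered beside each bar. The regions of H19 and Kcnq1ot1 and the upper one of Meg3 are at 0%, and the other 8 run from 32.7% to 100%.

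Taken by form, the 8 shared H3K4me3 regions were of 3 kinds. H3K27me3 covered the whole of 3 of them, in the Meg3 and Nespas windows. These had scores of 105.74, 420.36 and 242.32, and none was at the top score. H3K27me3 lay inside 4 of them, and 3 of these were at the top score. It reached over 1 end of the last, the upper Airn region, which was also at the top score. The share at the top score within each form was not counted over the whole list. A link between form and score was therefore not tested. In the whole list, 28.5% of shared H3K4me3 regions were wholly covered and 23.1% had H3K27me3 inside. The covered share was at least 50% in 5 of the 11 members (45.5%), beside 25.3% of the list. The median covered share of the 8 was 86.7%, close to the 84.1% of all shared H3K4me3 regions.

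The 3 H3K4me3 regions without H3K27me3 had listed H3K27me3 regions nearby on both sides, some of them low in score. Their nearest H3K27me3 regions were 328, 1588 and 1499 bp away at H19, Kcnq1ot1 and Meg3. The median over all H3K4me3 regions without H3K27me3 was 14.5 kb. The farther of the flanking regions was 3028, 2165 and 3146 bp away. Among all H3K4me3 regions without H3K27me3, 3.05%, 2.06% and 3.18% had H3K27me3 on both sides within these distances. With H3K27me3 regions of a score of at least 100 only, an alternative chosen after seeing the data, the lower gap at Kcnq1ot1 went from 1588 bp to 67.6 kb and the upper gap at Meg3 from 3146 to 4384 bp. The gaps at H19 stayed at 328 and 3028 bp. The Meg3 H3K4me3 region, with a score of 94.57, is itself below that score.

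The 81 H3K27me3 regions were, as a group, like their list in size. Their median width was 941 bp, beside 878 bp in the list, and their median score was 116, beside 112. At the top score were 3 of them (3.70%), beside 2.55% of the list. Those 3 were the Meg3 region at the window end and the 2 Nespas regions over the H3K4me3 regions with scores of 420.36 and 242.32. H3K4me3 was found on 9 of the 81 (11.1%), beside 7.08% of the list. These 9 were 2 of 24 in the Meg3 window, 2 of 21 in the Airn window and 5 of 7 in the Nespas window, and none of the 16 at H19 and the 13 at Kcnq1ot1. The 2 Nespas regions without H3K4me3 had scores of 64.15 and 114.59, lower than the 5 with it, which ran from 187.53 to 3100. In the Airn and Meg3 windows the highest H3K27me3 score was on a region without H3K4me3, at 663.71 and 3100. The highest with it was 542.89 and 2123.32. The median of the regions without it was 137.73 and 110.29.

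**Figure D4:**
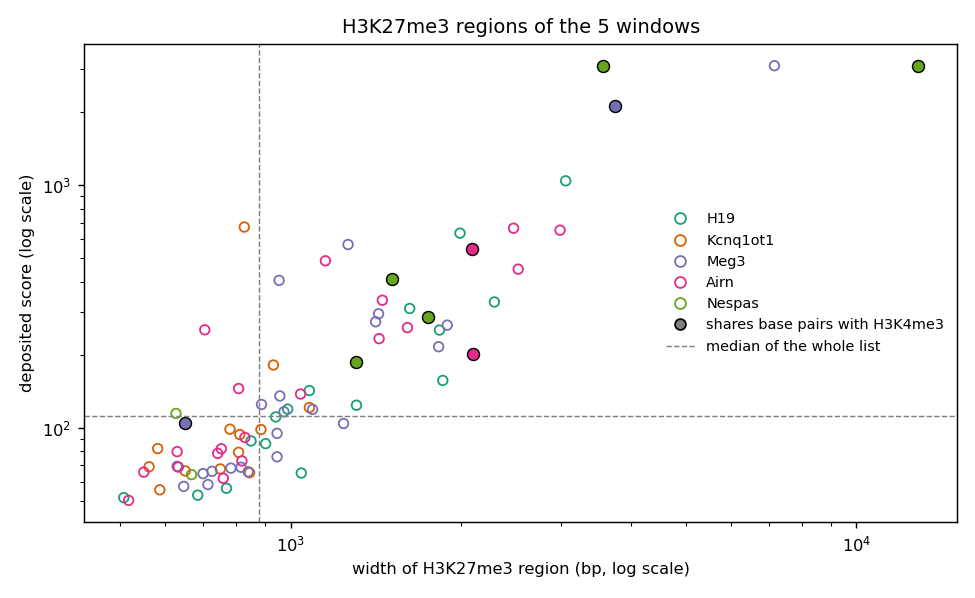
Width (x axis, bp, log scale) and deposited score (y axis, log scale) of the 81 H3K27me3 regions, coloured by window; filled points share base pairs with H3K4me3, and dashed lines are the medians of the whole list. The 9 filled points run in score from 104.26 to 3100, and the open points of H19 and Kcnq1ot1 reach 1040.35 and 671.42.

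The presence of shared base pairs was also set against all windows of the same length. At least 1 shared base pair was found in 19.6% of windows of 100 kb (Meg3), 22.6% of 120 kb (Airn) and 18.3% of 90 kb (Nespas), and in 11.3% of 50 kb (H19) and 21.1% of 110 kb (Kcnq1ot1). Among windows with H3K4me3 these shares were 45.7%, 47.9%, 44.9%, 39.4% and 46.7%. Shared base pairs are thus common where H3K4me3 is present, and 3 of 5 windows with them is a description of these loci only.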

How the data were processed

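The series holds 3 samples: 1 H3K4me3 library, 1 H3K27me3 library and 1 input not analysed here, grouped by the antibody named in the labels. The authors deposited 1 region list per mark, with MACS peak names and a score for every region, per the deposited files. The sources used here give no scale for the score, no MACS version, no calling threshold and no control. The submitters' processing notes name Bowtie 1.1.2 and mm9. Scores start at 50.01 (H3K4me3) and 50 (H3K27me3), pile up at 3100, and were compared only within a list. Read depth is unknown, so no value has a detection limit.

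Positions are counted from 1. Overlap means at least 1 bp shared. H3K27me3 domains join regions over gaps of up to 3000 bp. Windows were ranked among non-overlapping windows of their own length along the placed chromosomes. With 1 library per mark no test was made. Every H3K4me3 region and every overlapping pair in the windows was to be named, and other H3K27me3 regions where widest or highest in score. The windows and the alternatives were chosen with earlier results of these data known. Interval counts were checked on 100 simulated pairs of lists and against bedtools 2.31.1, with 0 differences. Python 3.11.15, pandas 2.3.3, NumPy 2.4.6, SciPy 1.17.1 and matplotlib 3.10.9 were used.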

Additional observations from a re-analysis of the deposited data

How the results depend on the processing

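The share of H3K4me3 regions in the windows with H3K27me3, 72.7% as reported, was also 72.7% with regions wholly inside the windows. It stayed there with at least 200 bp shared (32.4% over the list) and with H3K27me3 regions joined over 3000 bp. It was 76.9% with windows widened by 50 kb and 77.8% with scores of at least 100 (28.6% over the list). When at least 50% of the region had to be covered, it was 45.5% (25.3% over the list). For joined regions no share over the list was counted. The number of H3K27me3 regions, 81, became 187 in widened windows, which covered 236099 bp in place of 111282 bp, and 45 at scores of at least 100, where Kcnq1ot1 went from 13 to 3. Widening brought in 1 further H3K4me3 region with H3K27me3 at H19 and 1 at Kcnq1ot1, so the lack of shared base pairs at these 2 loci holds for the windows as given. At scores of at least 100, the Meg3 window kept 1 H3K4me3 region. Counted only among windows that hold H3K4me3, the percent of windows with less H3K27me3 was 93.3 for H19, 72.0 for Kcnq1ot1, 91.0 for Meg3, 86.8 for Airn and 87.2 for Nespas. No paired analysis was possible because there is only 1 library per mark. Depth is unknown, and it bears on how many weak regions a list holds and so on every gap without H3K27me3 given above.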

Other observations

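The H3K4me3-free stretches around the members differed in length and in H3K27me3. The longest followed the last Meg3 region, chr12:110834868-111557657, where no H3K4me3 region was listed over 722.8 kb. Of all gaps between neighbouring H3K4me3 regions, 2.78% were at least as long. H3K27me3 was not missing from it, with 91 regions that covered 14.3%. In the gene order of GRCm38.p6 the microRNA genes Mir673, Mir493 and Mir337 come next after Meg3. The stretch of 233.1 kb below the first Airn region held no H3K4me3 and 18.3% H3K27me3, and the 82.6 kb above the last Nespas region held neither mark.

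Among promoters of neighbouring protein-coding genes in the RefSeq table of GRCm38.p6, that of Igf2r held 34 CG pairs, and 93.0% of all promoters held as many or fewer. The 4 Gnas promoters held 27, 16, 28 and 40, and the 4 Igf2 promoters 2, 14, 24 and 7. The promoter of Rian, a lncRNA of the Meg3 cluster, held 0 and that of Mirg, another, held 10. These were not placed on the mm9 regions.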
